A study of Mus musculus with 8 samples.

Results

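Gata1, Gata2, Zfpm1, Gfi1b, Tal1, Lmo2, Klf1, Nfe2, Itga2b and Pf4, a group of GATA transcription factors, their partners and targets in red cell and platelet precursors, were followed in mouse hematopoietic cell lines that lack Picalm or carry a PICALM rescue. These 10 genes, of 12393 genes measured, were chosen by name, with earlier results of these data known. Every probe set whose only gene symbol was one of them was taken, which gave 12 probe sets of 22626. Gata2 and Zfpm1 had 2 probe sets each and the other genes 1. Where a gene had more than 1, the probe set with the highest mean over the arrays is called the leading one. All values are deposited log2 expression values from Affymetrix arrays normalized by RMA (robust multi-array average).

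The cells were fetal liver cells of E14 fit1 Picalm fit1-5R embryos, on the B6(Cg)-TyrC-2J/J background, immortalized with a retrovirus that carried the leukemia fusion MLL-ENL and selected by serial replating in methylcellulose. All of them, controls included, therefore lacked Picalm at the start and carried MLL-ENL, and all grew with 5 ng/ml interleukin-3 and 50 ng/ml stem cell factor. The 4 lines are PICALM6A, PICALM6B, PICALM6D and PICALM84, called 6A, 6B, 6D and 84 here. Each line was measured on 1 array as knockout cells, transduced with the empty MSCVneo retrovirus, and on 1 array as rescued cells, transduced with human PICALM complementary DNA in the same vector, which gave 4 arrays a group and 8 in all. The rescue vector may give more PICALM than a normal cell has, and the labels do not say whether lines 6A, 6B and 6D came from separate embryos. For rescued against knockout arrays, the p-values of the linear model (limma) are set against the spread of the within-line differences. For line 84 they rest on the spread between lines 6A, 6B and 6D. In both, that spread is estimated in part from all probe sets. The transcript of Picalm itself was not analysed here.

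GATA1 and GATA2 are zinc finger proteins that bind the same short DNA words. GATA2 acts in stem and early progenitor cells and in mast cells, and GATA1 takes over many of its sites as cells mature along the erythroid, megakaryocyte, mast cell and eosinophil paths. GATA1 works with the cofactor FOG1, made by Zfpm1, and in complexes in which LMO2 and LDB1 bridge a GATA factor to TAL1. GFI1B is a repressor needed in both lineages, KLF1 activates globin and other red cell genes, NFE2 is needed for platelet production, and Itga2b (CD41) and Pf4 (platelet factor 4) are markers of the megakaryocyte line.

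The promoters of the members were searched for the DNA words that GATA factors read. RefSeq promoters (GRCm38.p6) were found for 8 of the 10 genes, 10 promoters in all, and Nfe2 and Lmo2 were not matched. The hexamers AGATAA and AGATAG, and likewise TGATAA and TGATAG, were searched on both strands in the 250 bases before each start. Of the 10 member promoters 3 held one, close to the share of 26.5% among all 32851 promoters searched. The 7 without one were those of Gata1, Gata2, Zfpm1, Itga2b and Pf4 and the other Tal1 promoter. The 3 are printed on the strand of the gene, with the hexamer in capitals, because they show where such a word lies in genes whose levels are described next. They belong to Gfi1b (chr2:28621983-28622232, minus strand, hexamer 120 to 115 bases before the start), to the first of 2 Tal1 promoters (chr4:115056176-115056425, plus strand, 205 to 200 bases before it) and to Klf1 (chr8:84901732-84901981, plus strand, 80 to 75 bases before it), and in Tal1 and Klf1 the hexamer reads on the opposite strand.
Gfi1b: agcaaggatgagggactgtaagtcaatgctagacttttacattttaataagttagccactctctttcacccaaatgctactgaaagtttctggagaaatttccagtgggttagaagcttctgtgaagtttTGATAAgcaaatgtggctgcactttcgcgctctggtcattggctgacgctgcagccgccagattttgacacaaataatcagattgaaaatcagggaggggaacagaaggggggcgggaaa
Tal1: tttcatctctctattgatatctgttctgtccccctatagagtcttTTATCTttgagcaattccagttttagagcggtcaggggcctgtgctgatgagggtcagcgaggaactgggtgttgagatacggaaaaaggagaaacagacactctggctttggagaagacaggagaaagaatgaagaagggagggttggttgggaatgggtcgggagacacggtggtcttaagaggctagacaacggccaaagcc
Klf1: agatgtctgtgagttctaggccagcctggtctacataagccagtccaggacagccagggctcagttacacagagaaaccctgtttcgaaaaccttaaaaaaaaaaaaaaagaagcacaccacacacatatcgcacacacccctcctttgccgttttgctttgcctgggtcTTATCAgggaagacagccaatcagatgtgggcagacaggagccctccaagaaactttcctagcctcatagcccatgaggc
A match is a description of the letters and was not tested for binding.

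The array medians lay between 7.32 and 7.35. Each of the 8 arrays deviated from its group mean most like the other array of its own line, with correlations of 0.62 to 0.81. The 7 hematopoietic label genes, such as Ptprc and Laptm5, averaged 11.44 to 11.64 on every array. Line 84 stood apart: 40.8% of probe sets were called different between it and the other lines, and 495 probe sets differed by more than 1 between its rescued and knockout arrays, against 39 to 116 in the other lines. Results that rest on line 84 are therefore those of 1 line, assumed in the test to vary as the others do.

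The GATA factors themselves were higher in line 84 than in the other lines. Gata1 read 5.15, 5.19 and 5.31 in the knockout arrays of lines 6A, 6B and 6D and 5.27, 5.24 and 5.38 in their rescued arrays, but 6.67 in the knockout and 7.46 in the rescued array of line 84. The 6 arrays of the other lines thus spanned 5.15 to 5.38, and both arrays of line 84 lay well above them. The line 84 mean exceeded that of the other lines by 1.81 (SE 0.07; limma, adjusted p = 0.000585). The leading Gata2 probe set read 8.09, 7.98 and 8.30 in the knockout arrays of lines 6A, 6B and 6D, 7.65, 7.72 and 8.25 in the rescued ones, and 10.65 and 10.88 in the knockout and rescued arrays of line 84. Its difference of 2.77 (SE 0.19, 6.82-fold, adjusted p = 0.00189) was the highest among the members. The other Gata2 probe set gave 1.85 (SE 0.14, adjusted p = 0.00239), with 7.98 to 8.39 in the other lines against 9.83 and 10.29.

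**Figure D1:**
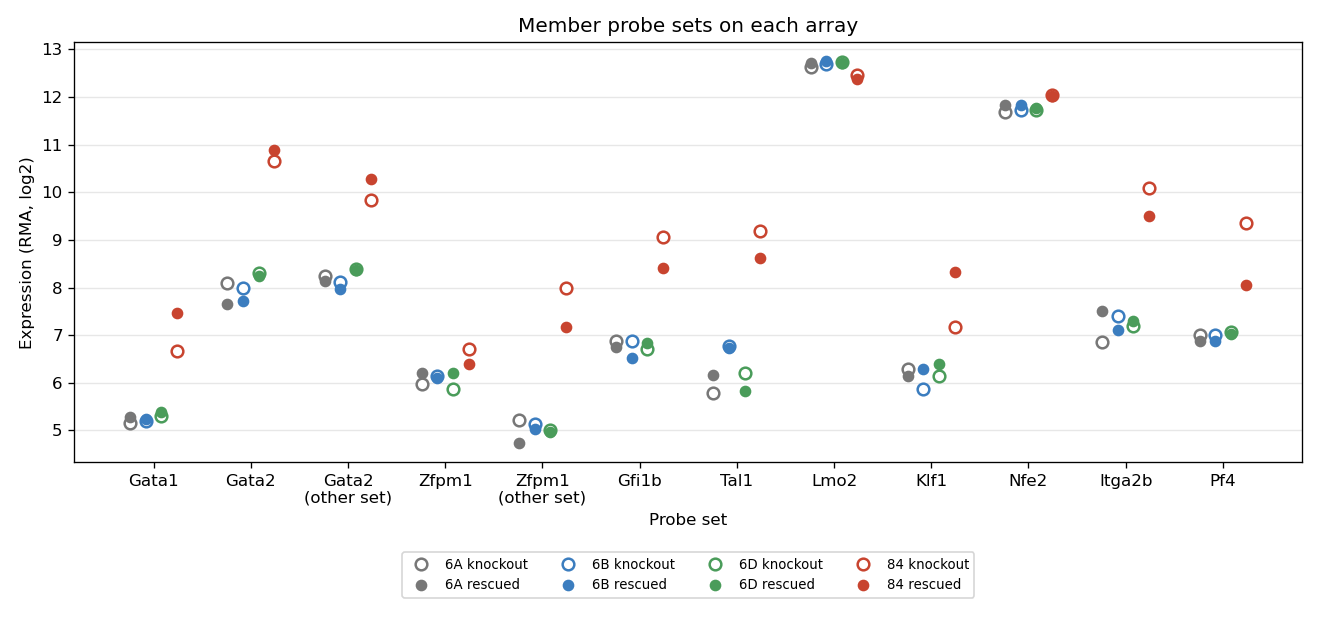
The RMA log2 value (vertical axis) of each of the 12 member probe sets (horizontal axis) on every array, with open points for knockout and filled points for rescued arrays and 1 colour a line. Both arrays of line 84 lie above all 6 arrays of the other lines for 11 probe sets and below them for Lmo2.

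Among the cofactors and complex members, Zfpm1, which makes the GATA partner FOG1, differed strongly in 1 of its probe sets. The leading one read 5.88 to 6.20 in the other lines and 6.72 in the knockout and 6.40 in the rescued array of line 84, a difference of 0.47 (SE 0.06, adjusted p = 0.00841) that was not called in the rescued arrays alone (0.23, adjusted p = 0.126). The mean over both probe sets gave 1.52. The other probe set read 4.74 to 5.23 in the other lines and 7.99 and 7.18 in line 84, a difference of 2.57 (SE 0.06, adjusted p = 0.000166). The 2 probe sets agreed in direction and not in size, and both were among the 40% of probe sets with the lowest mean, as was Gata1. No detection calls were used, so no fold is given for Gata1, Zfpm1, Tal1 and Klf1, whose mean in the other lines lay in that dim range. Tal1, a basic helix-loop-helix factor of the early blood program, read 5.78, 6.76 and 6.21 in the knockout arrays of lines 6A, 6B and 6D, 6.15, 6.72 and 5.83 in the rescued ones, and 9.18 and 8.63 in line 84. Its difference was 2.66 (SE 0.33, adjusted p = 0.00828), with the widest spread among the other lines of any member (SD 0.43, n = 3 lines). Lmo2, the bridging protein, was the 1 member lower in line 84, at 12.47 and 12.38 against 12.64 to 12.75 in the other lines, a fall of 0.28 on the log2 scale (log2 difference -0.28, SE 0.05, adjusted p = 0.0237).

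The lineage factors differed in size. Gfi1b read 6.52 to 6.89 in the other lines and 9.07 in the knockout and 8.42 in the rescued array of line 84, a difference of 1.98 (SE 0.07, 3.95-fold, adjusted p = 0.000402). Klf1 read 5.87 to 6.39 in the other lines and 7.17 and 8.33 in line 84, a difference of 1.56 (SE 0.08, adjusted p = 0.00115). Nfe2 moved least among the genes that were higher, from 11.70 to 11.84 in the other lines to 12.04 and 12.03 in line 84, a difference of 0.27 (SE 0.05, adjusted p = 0.0228).

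Both megakaryocyte markers were higher in line 84. Itga2b read 6.86, 7.41 and 7.20 in the knockout arrays of lines 6A, 6B and 6D, 7.52, 7.12 and 7.30 in the rescued ones, and 10.09 and 9.50 in line 84, a difference of 2.56 (SE 0.06, 5.90-fold, adjusted p = 0.000143). Pf4 read 6.87 to 7.06 in the other lines and 9.36 in the knockout and 8.05 in the rescued array of line 84, a difference of 1.73 (SE 0.07, 3.31-fold, adjusted p = 0.000531).

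In all, 11 of the 12 member probe sets were called higher and 1 lower in line 84, where 22.1% and 18.7% of all probe sets were. Both arrays of line 84 lay above the other 6 for 11 and below them for 1, beside 21.7% and 17.5% of all probe sets. A difference of 1 or more was seen in 2.03% of all probe sets and in 9 of the 12 of the members. The median difference of the member probe sets was 1.83 and that of all probe sets 0.02. The members were chosen with earlier results of these data known, so their counts beside those shares are a description. With 1 line against 3, the smallest p an exact permutation could give is 0.25, so these calls rest on the spread estimated across all probe sets.

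The genes whose pattern was most like those of the 3 members with the most variable leading probe sets were found by Pearson correlation over the 8 arrays. The arrays share lines, and the offset of line 84 enters every value. For Gata2 they were Hacd3, Ruvbl2 and Macrod2 (r = 0.999, 0.998 and 0.996), for Tal1 Acbd6, Lmo1 and Hpf1 (r = 0.994, 0.988 and 0.987), and for Itga2b Spin1, Mrpl13 and Snrpg (r = 0.995, 0.994 and 0.994). Correlations above 0.95 were reached by 376, 268 and 524 probe sets of other genes.

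With PICALM, no member was called changed across the 4 lines. This comparison asked whether rescued and knockout cells of the same line differ, and 0 of the 12 member probe sets were called, beside 0.0796% of all probe sets (18, limma with the line as a block). At an unadjusted p under 0.05, 1 of the 12 passed, the other Zfpm1 probe set, beside 12.5% of all. SAM and the methods' t-test after Benjamini-Hochberg adjustment called 0 members too. In Gata1 the rescued array exceeded the knockout array in each of the 4 lines, by 0.13, 0.05 and 0.07 in lines 6A, 6B and 6D and by 0.79 in line 84, with a fitted difference of 0.26 (SE 0.14, adjusted p = 0.480), and 12% of all probe sets were likewise higher in each line. Pf4 was lower in the rescued array of all 4 lines, and so was the other Zfpm1 probe set, as were 12.8% of all. For Pf4 the log2 differences were -0.14, -0.11 and -0.03 in lines 6A, 6B and 6D and -1.30 in line 84, with a fitted value of -0.40 (SE 0.22, adjusted p = 0.506). The Klf1 difference was 0.43 (SE 0.20, adjusted p = 0.444) and that of the leading Gata2 probe set -0.13 (SE 0.11, adjusted p = 0.642). The group ranges overlapped for all 12 probe sets. Line 84 fixed this in advance, since each group held 1 of its arrays and both lay outside the other 6. The overlap therefore cannot show whether the members differ with PICALM. Of all probe sets, 1.88% had every rescued array above every knockout array and 1.57% every one below. The exact two-sided permutation p over the 8 arrays was 0.4857 or higher for each of the 12 member probe sets. This permutation ignored the pairing by line, so the offset of line 84 entered it. The smallest p for 4 against 4 arrays, 0.0286, could not be reached with 1 array of line 84 in each group. Like the overlap, this p therefore cannot show whether the members differ with PICALM.

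**Figure D2:**
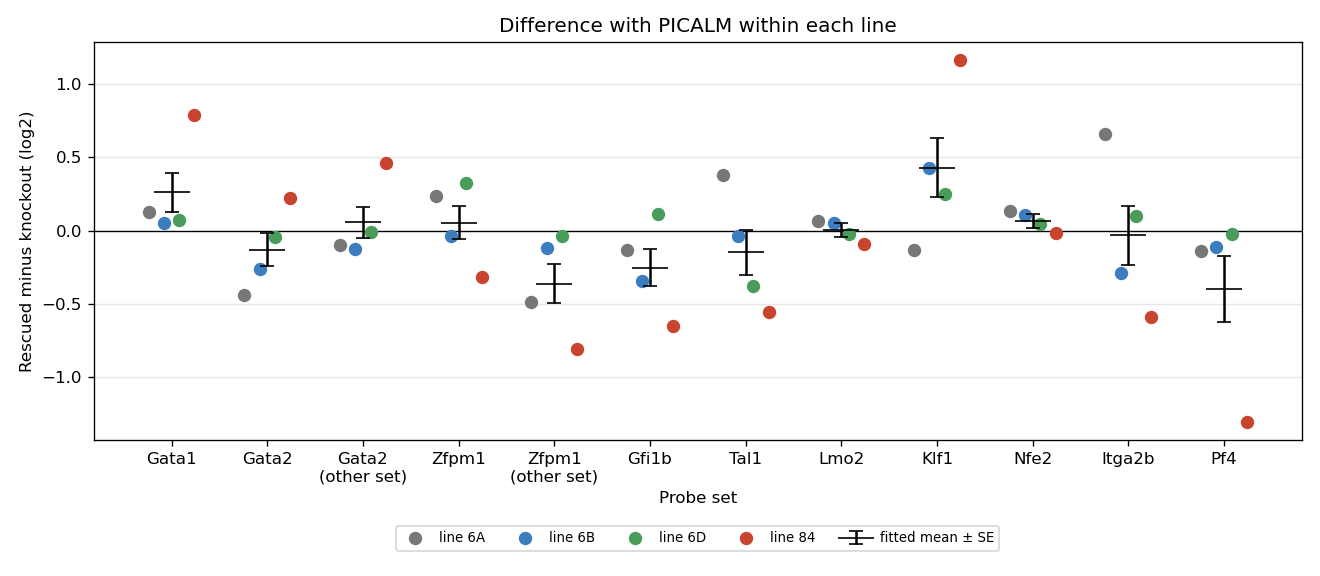
The log2 difference between the rescued and the knockout array of each line (vertical axis) for the 12 member probe sets (horizontal axis), with 1 coloured point a line and the fitted mean with its SE in black. For Gata1, Klf1 and Pf4 the difference is widest in line 84, at 0.79, 1.16 and -1.30, and the other Zfpm1 probe set has -0.81 there.

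Whether the difference with PICALM in line 84 lay outside that of the other lines was asked next, and it split the members in 2 directions. Within line 84 Gata1, both Gata2 probe sets and Klf1 were higher in the rescued array and the other 8 probe sets lower. In all, 3 of the 12 were called higher and 1 lower, where 3.82% and 3.2% of all probe sets were and 7.02% in either direction. The Gata1 difference in line 84 exceeded the mean of the other lines by 0.71 (SE 0.09, adjusted p = 0.0339). For Klf1, at 1.16 in line 84 against -0.13, 0.43 and 0.25 in lines 6A, 6B and 6D, the excess was 0.98 (SE 0.22, adjusted p = 0.115), close to the threshold of 12.3%. It was lost without line 6D (1.01, adjusted p = 0.167). The other Gata2 probe set gave 0.54 (SE 0.09, adjusted p = 0.0677), while the leading one gave 0.47 (SE 0.17, adjusted p = 0.218) and was not called, though it was with a variance trend (adjusted p = 0.11). Pf4 was the member called lower, with -1.21 (SE 0.09, adjusted p = 0.0143). Its difference within line 84 alone was -1.30, a level 2.47-fold lower in the rescued than in the knockout array. For Itga2b, Gfi1b and Tal1, also lower with PICALM in line 84, the values were -0.75, -0.53 and -0.54, with adjusted p of 0.331, 0.218 and 0.373.

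**Figure D3:**
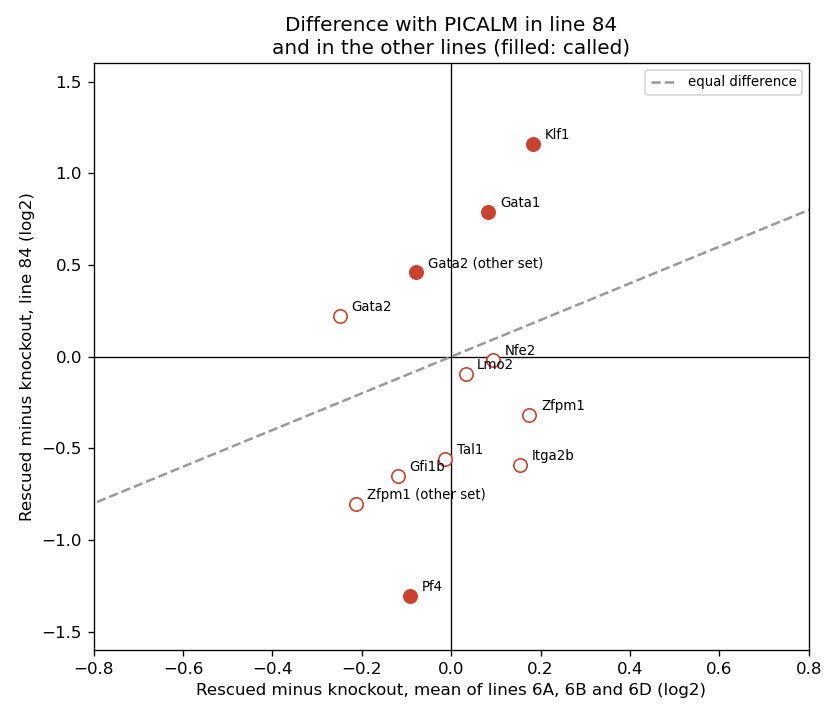
The log2 difference between rescued and knockout cells in line 84 (vertical axis) against its mean in lines 6A, 6B and 6D (horizontal axis, on a different scale) for the 12 member probe sets, with filled points for those called different between line 84 and the others and a dashed line where both are equal. Klf1, Gata1 and the other Gata2 probe set lie above the dashed line and Pf4 below it.

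The wider pathway is given by gene lists, also chosen with earlier results of these data known, each gene by its leading probe set. Of the leading probe sets of all genes, 24.5% were called higher and 17.8% lower in line 84. Of 23 partners and cofactors of the members, 12 were called higher and 3 lower in line 84. Ssbp2, which stabilizes LDB1, was the only one of them called with PICALM, and the only call in the 2 lists of regulators. It read 9.47, 9.52 and 9.47 in the knockout arrays of lines 6A, 6B and 6D against 8.96, 9.09 and 9.07 in the rescued ones, and 10.76 against 10.34 in line 84, lower in all 4 lines with a fitted difference of -0.44 (SE 0.04, adjusted p = 0.0932). The call was lost at an adjusted p under 0.05 and with no replicate block (adjusted p = 0.972). It was also lost without line 6A, 6B or 6D (adjusted p = 0.389, 0.637 and 0.262). With array weights (adjusted p = 0.0412), with a variance trend (adjusted p = 0.0294) and without line 84 (adjusted p = 0.11) it was kept. The difference without each line in turn lay between -0.45 and -0.42. Ldb1 was higher in line 84 by 0.52 (SE 0.07, adjusted p = 0.0110), Lyl1, a relative of Tal1, differed by 0.02 (adjusted p = 0.863), and Fli1, a megakaryocyte factor, was lower, at -0.81 (adjusted p = 0.00318). Runx1 was lower in line 84 on average, at -0.57 (adjusted p = 0.0429), and its rescue difference there exceeded that of the other lines by 0.91 (adjusted p = 0.0204). Of 21 other regulators of these lineages, 6 were called higher and 4 lower in line 84, with Bcl11a, a repressor of fetal globin genes, at 2.19 and Klf2 at -1.37.

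Of 26 erythroid genes, 11 were called higher and 2 lower in line 84, beside 24.5% and 17.8% of all genes, and 19 of the 26 were among the dimmest 40%. The carbonic anhydrases Car2 and Car1 were higher by 2.19 and 1.55, Tspo2 by 0.90, and Epor, the erythropoietin receptor, by 0.66 (adjusted p = 0.00343). The 2 called lower were Fech, the last enzyme of heme synthesis, at -1.07 (adjusted p = 0.0015), and Cd36 at -0.17 (adjusted p = 0.0783). Alas2, the first enzyme of heme synthesis in red cells, was at 5.24 to 5.73 on all arrays and was not called. Of 6 globin genes measured, the embryonic gene Hbb-y was called higher, by 0.68 (adjusted p = 0.00574), and the other 5 were not called, with Hba-a1 at 4.90 to 4.97 on all arrays.

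Of 21 megakaryocyte and platelet genes, 6 were called higher and 3 lower in line 84, close to those shares of all genes. Gp9 was higher by 1.56 and Ppbp, like Pf4 a platelet chemokine, by 1.72. The 3 called lower were F5, coagulation factor V, at -2.62 (adjusted p = 0.00105), Gng11 at -1.66 (adjusted p = 0.00111) and Vwf at -1.62 (adjusted p = 0.0456), and Gp1bb and Gp5 were not called, at -0.14 and 0.20. The rescue difference in line 84 was called lower than in the other lines for 3 of the 21 (Gp9 at -0.83, Ppbp at -1.69 and Selp at -0.71) and higher for 1, Rab27b at 0.86 (adjusted p = 0.0478), beside 3.61% lower and 3.86% higher of all genes. Cd36, Hbb-y, Hba-a1, Vwf, Selp and Rab27b lie outside the naming rule and were chosen after their values were seen.

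Markers of other cell types moved with the members in line 84, and their part in these results was not tested. Fewer cells of a type and less RNA per cell cannot be told apart in such bulk samples. Of 15 mast cell and basophil genes, 10 were called higher in line 84 and 0 lower, with list means of 7.17 and 7.87 there against 5.76 to 6.59 in the other arrays. Among those called higher were Cpa3, a mast cell protease, at 4.18, Mcpt8 at 3.85, and Kit, the stem cell factor receptor, at 1.17. Of 7 eosinophil genes, 6 were called higher and 0 lower, with list means of 5.54 and 7.49 against 4.68 to 5.16. Both arrays of line 84 lay above the other 6 for 3 of the 7, beside 21.7% of all probe sets. Among the mast cell and basophil genes this held for 6 of the 15. Prg2, the major basic protein of eosinophils, read 5.30 in the knockout and 10.87 in the rescued array of line 84 and at most 5.74 elsewhere. Epx and Prg3 went from 4.78 to 8.66 and from 5.89 to 9.32. The Epx value of the knockout array lay within the 4.54 to 4.94 of the other lines. Of 11 granulocyte and monocyte regulators, 0 were called higher and 5 lower in line 84, with list means of 8.75 and 9.28 against 9.25 to 9.57, and Spi1 at -0.43 (adjusted p = 0.00699) and Cebpa at -0.12 (adjusted p = 0.295). Of 12 neutrophil genes 3 were called higher and 4 lower, of 9 macrophage genes 2 and 4 and of 6 progenitor genes 5 and 0. With PICALM the fitted difference was positive for all 12 neutrophil genes, with a median of 0.99 and 0 called by limma. Of the 12, 9 were higher in each of the 4 lines, as were 12% of all probe sets. An unadjusted limma p under 0.05 was reached by 7 of them, beside 12.5% of all probe sets. The rescue difference in line 84 was called above that of the other lines for S100a8 (2.57, adjusted p = 0.0177), S100a9 (2.49, adjusted p = 0.0867) and the protease Elane (2.21, adjusted p = 0.0118). Among the progenitor genes Cd34 and Sox4 were lower with PICALM in all 4 lines, with fitted differences of -1.25 and -1.32 that were not called (adjusted p = 0.261 and 0.15). Flt3 was called lower in line 84 than elsewhere for the rescue difference, at -1.30 (adjusted p = 0.12). Of 10 lymphoid genes limma called 0 between line 84 and the other lines, and 0 had an unadjusted p under 0.05 there. Limma also called 0 in the 2 rescue comparisons. An unadjusted p under 0.05 was reached by 2 between rescued and knockout cells, and by 1 for the rescue difference of line 84.

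**Figure D4:**
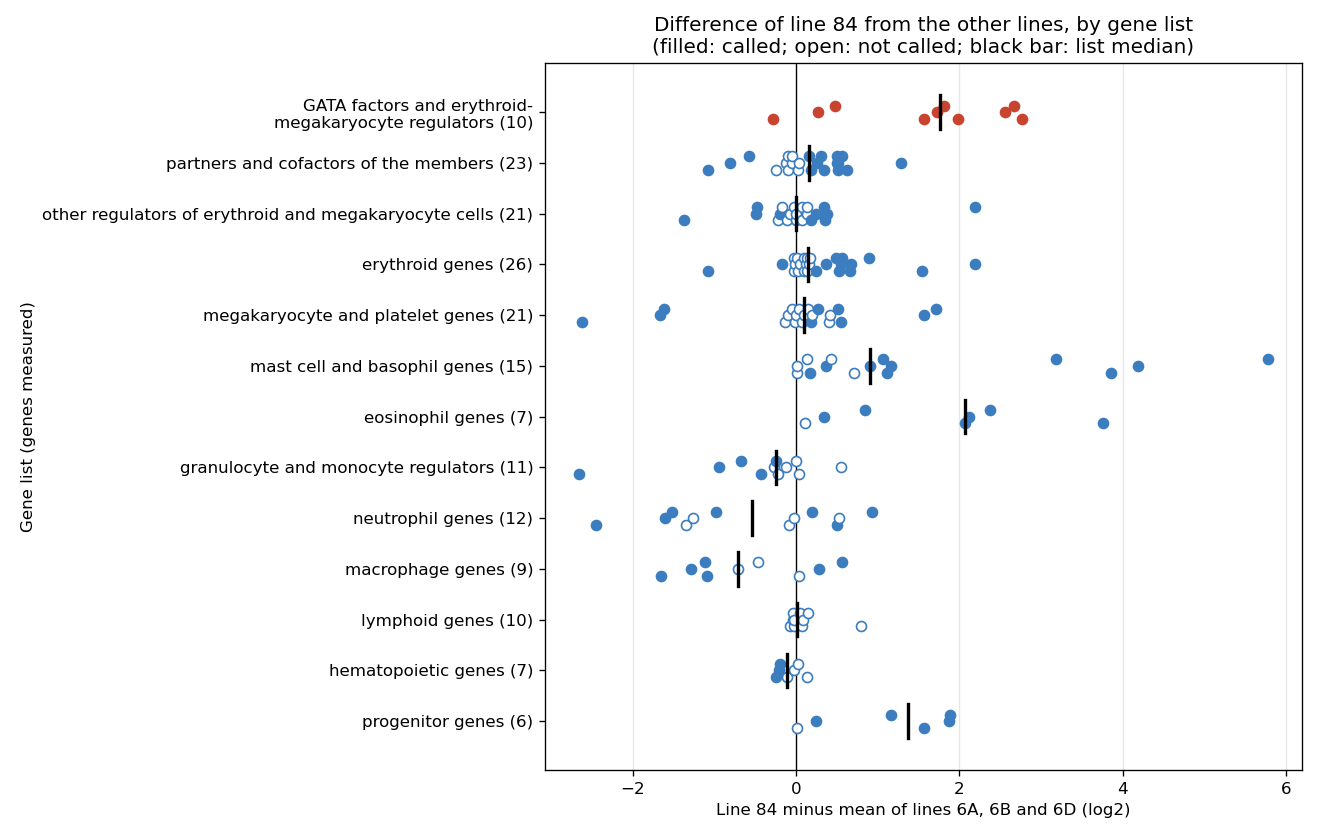
The log2 difference between line 84 and the mean of the other lines (horizontal axis) for each gene of the members and of the 12 lists (vertical axis, genes measured in parentheses), by leading probe set, with filled points called, open points not called and a black bar at the list median. The median is 1.77 for the 10 members and 2.07 for the 7 eosinophil genes, and lies near 0 for the lymphoid genes.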

How the data were processed

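Total RNA of 8 arrays was analysed, 4 rescued and 4 knockout, 1 of each for every line. The values are log2 expression that the authors normalized by RMA and deposited, and no scanner files were used. The labels and the methods name different versions of the Affymetrix mouse array. Of 22690 probe sets, 64 controls were left out and 22626 tested. In the platform annotation 20380 had 1 symbol, 691 several and 1555 none. Differences were tested two-sided with limma 3.58.1 (R 4.3.3) and Benjamini-Hochberg adjustment over all of them, called under 12.3%, the level of the authors' methods. Rescued and knockout arrays were compared with the line as a block, since both come from 1 line. Line 84 was tested on the 4 line means, and its rescue difference on the 4 within-line differences. The labels' line names pair the arrays. The members and lists were chosen with earlier results of these data known. Named were all members, and from each list the first 2 measured genes and up to 4 called in any comparison by smallest p, of which a part is printed. Alternatives changed the scaling, threshold, variance estimate, probe set rule, pairing, test and replicates. Statistics were tested on simulated data. The number of arrays limits the precision.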

Additional observations from a re-analysis of the deposited data

Results flagged for a closer look

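In each group of 4 arrays the gap of the highest or lowest value to its neighbour was divided by the range of the 4, and values above the critical value of Dixon's test are given. Chance passes about 1 group in 20. Of the 24 member values tested (12 probe sets in each group), 15 passed, and line 84 was the distant array in all 15. Over all probe sets 15.6% passed in the knockout and 11.6% in the rescued arrays, 12.7% and 7.99% with line 84 as the distant array. In the knockout arrays the ratio was 0.895 for Gata1, 0.883 for Gata2, 0.837 for Gata2 (other probe set), 0.927 for Zfpm1 (other probe set), 0.927 for Gfi1b, 0.882 for Nfe2, 0.82949 for Itga2b and 0.972 for Pf4. In the rescued arrays it was 0.940 for Gata1, 0.884 for Zfpm1 (other probe set), 0.840 for Gfi1b, 0.887 for Lmo2 (lowest), 0.892 for Klf1, 0.833 for Itga2b and 0.863 for Pf4.

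Most of the other genes named were chosen for a call in the line 84 comparison, so that line 84 stands apart in them follows from the choice, and the ratios are a description. In the knockout arrays the ratio was 0.959 for Ssbp2, 0.905 for Ldb1, 0.968 for Bcl11a, 0.898 for Epor, 0.905 for Car1, 0.894 for Car2, 0.943 for Fech (lowest), 0.918 for Gp9, 0.82902 for Ppbp, 0.858 for Selp, 0.957 for Cpa3, 0.903 for Mcpt8, 0.930 for Prg2, 0.872 for Epx, 0.882 for S100a8 (lowest), 0.893 for Elane (lowest) and 0.844 for Flt3, and 0.853 for Hba-a1 with line 6A lowest. In the rescued arrays it was 0.907 for Ssbp2, 0.941 for Fli1 (lowest), 0.963 for Bcl11a, 0.890 for Epor, 0.940 for Car1, 0.854 for Fech (lowest), 0.843 for Tspo2, 0.907 for Cd36 (lowest), 0.918 for Gp9, 0.915 for Gng11 (lowest), 0.843 for Mcpt8, 0.901 for Epx, 0.957 for Prg3, 0.978 for Elane (lowest) and 0.835 for Sox4.

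The rescue difference of line 84 against the other lines was called (limma, 1 line against 3) with log2 values of 0.71 for Gata1, 0.54 for Gata2 (other probe set), 0.98 for Klf1 and -1.21 for Pf4 among the members, and of 0.91 for Runx1, -0.50 for Bcl11a, 0.86 for Klf2, 1.27 for Car1, -0.54 for Cd36, -0.83 for Gp9, -1.69 for Ppbp, 0.86 for Rab27b, -0.71 for Selp, 5.12 for Prg2, 3.72 for Epx, 3.35 for Prg3, 2.57 for S100a8, 2.49 for S100a9, 2.21 for Elane and -1.30 for Flt3 among the other genes named.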

How the results depend on the processing

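For the rescue comparison 0 of 10 members, by leading probe set, were called under every alternative run, including no replicate block, SAM paired by line or unpaired, and the methods' t-test. Over all probe sets the count moved from 18 to 0 with no replicate block or without line 6A, 6B or 6D, 50 without line 84, 4 at an adjusted p under 0.05, 3 with gene means over probe sets, 100 with a variance trend, 117 with array weights, 562 by SAM paired, 45 unpaired, and by the methods' t-test 1179 at an unadjusted p under 0.05 and 0 adjusted. Uncalled differences changed sign for Zfpm1 averaged over its probe sets (-0.15) and for Itga2b with array weights (0.037). Leaving out 1 replicate, with or without the paired lines, they ranged from -0.28 to 0.62 for Gata1 and from -0.88 to 0.50 for Gata2. The ranges were -0.048 to 0.23 for Zfpm1, -0.68 to 0.31 for Gfi1b, -0.75 to 0.58 for Tal1 and -0.054 to 0.087 for Lmo2. They were -0.085 to 0.70 for Klf1, -0.58 to 0.70 for Itga2b and -0.68 to 0.19 for Pf4. Without the pairing, leaving out 1 array leaves its line in 1 group only, so the offset of that line enters the difference. The size of its part in these ranges was not tested.

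For line 84 against the others all 10 members kept their direction under the alternatives run. Leaving out the dimmest 40% of probe sets left 8 members, all called. In the rescued arrays alone Zfpm1 lost its call (0.23, adjusted p = 0.126). Over all probe sets 9232 calls became 5950 at an adjusted p under 0.05, 4988 in the rescued arrays alone and, over 12393 genes, 5258 with gene means. For the rescue difference of line 84, 3 members were called and 5 with gene means over probe sets, where Gata2 (0.51) and Zfpm1 (-0.54) were added, and 4 with a variance trend, where Gata2 was added. Klf1 lost its call at an adjusted p under 0.05 and without line 6D. Over all probe sets 1589 calls became 502 at an adjusted p under 0.05, 2879 with a variance trend, 1047 with gene means and 780 without line 6B. The number of arrays limits these tests, with 1 array a line and group.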
